A study of Homo sapiens with 6 samples.

Results

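YAP1, its paralogue WWTR1, 2 of the TEAD factors they work through, 3 regulators that act on them and 3 of their standard target genes were followed in MDA-MB-231 cells adapted to life without glutamine. The 10 genes (YAP1, WWTR1, TEAD1, TEAD4, LATS2, AMOTL2, AJUBA, ANKRD1, CCN1 and CCN2) were taken by symbol from deposited count tables of 28265 gene rows, and all 10 were found and passed the filter on low counts. MDA-MB-231GlnIND, called GlnIND here, is a glutamine-independent derivative of MDA-MB-231, a mesenchymal-like triple-negative breast cancer line, and had been in glutamine-free medium with 10% dialyzed serum for more than 6 weeks. Parental MDA-MB-231 cells were in glutamine-replete medium with 10% ordinary fetal bovine serum, so cell population, glutamine and serum type differ together between the groups. Each group had 3 libraries of polyA RNA. The labels say neither whether the libraries came from separate cultures nor whether GlnIND is a clone, and p-values therefore measure only the spread between these libraries.

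YAP1 and TAZ (the protein of WWTR1) are transcriptional co-activators without a DNA-binding domain of their own. In the nucleus they bind TEAD proteins and switch on genes of growth, adhesion and the cytoskeleton. The Hippo kinase cascade, in which MST kinases activate LATS kinases, phosphorylates YAP1 and TAZ and holds them in the cytoplasm or sends them to degradation. Cell density, matrix stiffness and actin tension act on this switch, and several of its targets (LATS2, AMOTL2) are themselves inhibitors, which gives negative feedback. Because the switch is largely post-translational, the mRNA levels of YAP1, WWTR1 and their regulators do not report the activity of YAP1 or TAZ.

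Libraries held 18256219 to 24594248 counts. The libraries of GlnIND lay close together, with a median absolute difference of 0.0676 to 0.0745 in log2 CPM between any pair over 9437 genes. Parental 2 and 3 were also close (0.0792), whereas parental 1 differed from them by 0.188 and 0.215. Without parental 1 the share of all tested genes called was 65.2%, against 56.3% with all libraries, and counts made without it are read against the first of these. Of the markers of this line, VIM stood at 6077 CPM in GlnIND and 3979 CPM in parental cells, EGFR was higher and CD44 and KRT18 were lower in GlnIND cells, and ESR1, PGR and CDH1 had at most 8 counts in any library. ERBB2 was at 63.7 CPM in GlnIND and 36.1 CPM in parental cells and was called higher, and EPCAM was at 2.22 CPM in GlnIND and 14.3 CPM in parental cells and was called lower. Other cell types were checked with 6 markers, summing to 18.8 to 19.3 CPM in GlnIND and 6.18 to 8.23 CPM in parental libraries. LUM, COL1A1 and PECAM1 were higher in GlnIND cells, and PTPRC, DCN and ALB had at most 6 counts in any library. The part of these markers in the results was not tested. In bulk RNA, a change in the share of cells that express a gene and a change in RNA per cell cannot be told apart.

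The comparison of GlnIND with parental cells asks which members of the pathway differ after long adaptation. YAP1 mRNA was 2.12-fold lower in GlnIND cells, while TEAD1 and WWTR1 were lower by smaller amounts. The target genes did not move as one. CCN2 rose 1.97-fold, ANKRD1 was 1.80-fold lower and CCN1 did not pass the test. Of the 10 members 1 rose, 5 fell and 4 were not called by edgeR's quasi-likelihood test, where a call is a Benjamini-Hochberg adjusted p under 0.05 over 13949 tested genes. Across all tested genes 56.3% were called, 28.4% as higher and 27.9% as lower. The 60% of members called is therefore close to the background, and the count alone says nothing particular about the pathway. The libraries of the groups did not overlap for 7 of the 10, with GlnIND above for 1 and below for 6, and did not overlap for 65% of all tested genes. The median log2 fold change was -0.24 over the members and 0.03 over all tested genes. Without parental 1, 1 member rose and 7 fell, while of all tested genes 32.3% rose and 32.9% fell. With library totals in place of TMM composition factors, 2 rose and 2 fell, and the median of all genes stood at 0.18.

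**Figure D1:**
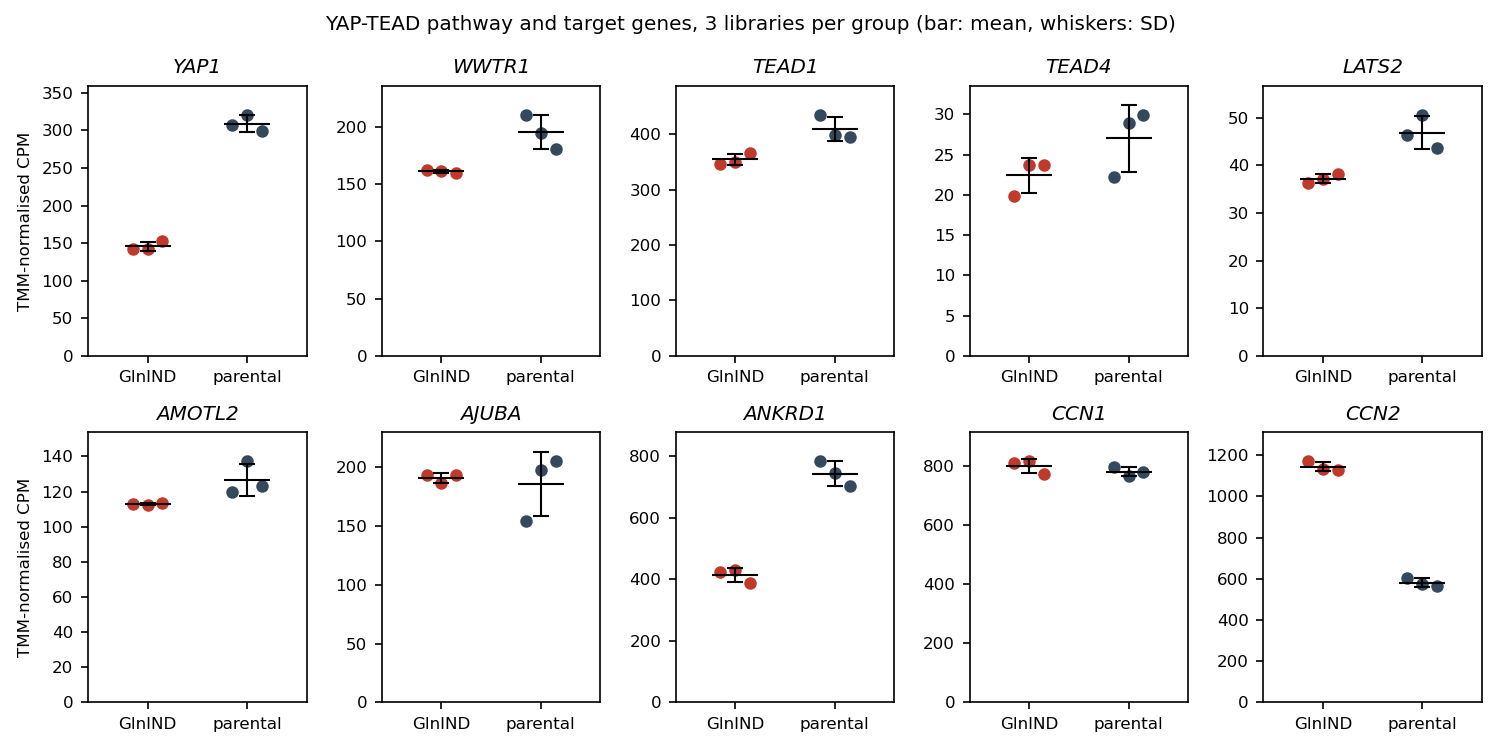
Level of each of the 10 members in TMM-normalised CPM (vertical axes, each starting at 0), for 3 GlnIND libraries (red, left) and 3 parental libraries (blue, right), with the mean as a bar and the SD as whiskers. YAP1 and ANKRD1 lie far lower in GlnIND, CCN2 far higher, and the groups overlap for CCN1, AJUBA and TEAD4.

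Among the co-activators, YAP1 had 142, 143 and 152 CPM in GlnIND libraries 1 to 3, against 307, 321 and 299 CPM in parental libraries 1 to 3. Every GlnIND library lay below every parental one, and the gap between groups was far wider than the spread within either. The means were 146 ± 5.70 CPM in GlnIND and 309 ± 10.9 CPM in parental cells (SD, n = 3 each), with a log2 difference of -1.08 (standard error 0.062, with edgeR adjusted p = 1.03e-06). The change of YAP1 was exceeded in size by 13.7% of all tested genes. WWTR1 had 162, 162 and 160 CPM in GlnIND libraries, against 210.5, 194 and 181 CPM in parental libraries. The groups did not overlap, but the lowest parental value came close to the GlnIND values. WWTR1 fell by 0.28 on the log2 scale (standard error 0.069, with edgeR adjusted p = 0.00692). This change was exceeded in size by 63.6% of all tested genes.

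As the libraries were scaled alike for both genes, their ratio within a library does not depend on scaling. The count ratio of WWTR1 to YAP1 was 1.14, 1.13 and 1.05 in GlnIND libraries, against 0.685, 0.606 and 0.605 in parental libraries. Counts for WWTR1 thus exceeded those for YAP1 in each GlnIND library and fell short of them in each parental one. The difference of the log2 ratio was 0.81, with an exact two-sided permutation p of 0.1, the smallest that 3 libraries against 3 can give (also 0.1 after adjustment over 4 ratios). The ratio was chosen after the values were seen. Per kilobase of exon in GENCODE release 29, which is not necessarily the annotation used for counting, YAP1 stood at 25.9 ± 1.01 CPM per kb in GlnIND and 54.9 ± 1.94 CPM per kb in parental cells, and WWTR1 at 30.0 ± 0.243 and 36.4 ± 2.77 CPM per kb (SD, n = 3 each). On that scale the order of the co-activators differed between the groups, with WWTR1 above YAP1 in GlnIND and below it in parental cells.

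TEAD1 and TEAD4 encode DNA-binding factors that recruit YAP1 and TAZ to target genes. TEAD1 had 347, 351 and 366 CPM in GlnIND libraries, against 435, 399 and 394 CPM in parental libraries. The groups did not overlap, and TEAD1 fell by 0.21 on the log2 scale (standard error 0.063, with edgeR adjusted p = 0.0182). Its change was exceeded in size by 72.15% of all tested genes. The call did not hold without GlnIND 1 (adjusted p = 0.0662) or GlnIND 2 (0.0651), under upper-quartile scaling (log2 fold change -0.12) and under library totals (-0.05). TEAD4 had 19.9, 23.7 and 23.7 CPM in GlnIND libraries, against 22.3, 28.9 and 29.9 CPM in parental libraries. The ranges overlapped through parental 1, and TEAD4 was not called at a log2 fold change of -0.27 (standard error 0.13, with edgeR adjusted p = 0.107). Without parental 1 its log2 fold change was -0.40 and it was called (adjusted p = 0.000127).

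The other TEAD genes were measured beside them. TEAD2 was at 23.9 ± 0.870 CPM in GlnIND and 24.8 ± 1.37 CPM in parental cells (SD, n = 3 each) and was not called (edgeR adjusted p = 0.657). TEAD3 fell by 0.29 log2 units (edgeR adjusted p = 0.038), a call lost without GlnIND 1 or 2 or parental 2 or 3 (adjusted p 0.0713 to 0.128), under upper-quartile scaling (0.143) and under library totals (0.318). Per kilobase of exon, TEAD1 made up 56.1% of the summed TEAD level in GlnIND and 56.0% in parental cells. TEAD4 followed with 18.2% and 19.0%. TEAD2 and TEAD3 lay between 11.7% and 13.4% in both groups, and on that scale their values did not differ beyond their SD within GlnIND cells.

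VGLL cofactors bind TEAD at the surface that YAP1 and TAZ use. Of the 10 listed effectors and nuclear partners 8 were tested, 2 rose, 4 fell and 2 were not called, with a median log2 fold change of -0.24. Of the tested genes of this list 75% were called, beside 56.3% of all tested genes. The genes of the list that rose were both VGLL genes. VGLL3 had 24.9, 24.7 and 27.2 CPM in GlnIND libraries, against 6.55, 5.61 and 6.45 CPM in parental libraries. It stood clear of the parental range in each GlnIND library, with a log2 fold change of 2.04 (standard error 0.11, with edgeR adjusted p = 8.65e-07). VGLL4, known as a competitor of YAP1 for TEAD, rose by 0.38 on the log2 scale (standard error 0.088, with edgeR adjusted p = 0.00436). VGLL1 and VGLL2 had at most 10 counts in any library and were not tested. Without GlnIND 1 or GlnIND 2, or with upper-quartile factors, 2 genes of the list fell, with library totals 1 fell, and without parental 1 there were 5. In the same order of settings, 24%, 23.6%, 23%, 20.1% and 32.9% of all tested genes fell.

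LATS2, one of the kinases that phosphorylate YAP1 and TAZ, had 36.3, 37.1 and 38.3 CPM in GlnIND libraries, against 46.5, 50.6 and 43.6 CPM in parental libraries. The groups did not overlap. LATS2 fell by 0.33 on the log2 scale (standard error 0.084, with edgeR adjusted p = 0.00708), a change exceeded in size by 57.1% of all tested genes. With library totals its value was -0.18 and the call was lost (adjusted p = 0.0947). Its paralogue LATS1 was at 50.4 ± 2.11 CPM in GlnIND and 59.4 ± 6.88 CPM in parental cells (SD, n = 3 each) and missed the threshold (edgeR adjusted p = 0.0523). LATS1 passed without parental 2 (adjusted p = 0.0417), without parental 3 (0.0316) and with RLE factors (0.0483). Over the 7 genes of the kinase core 2 fell, 0 rose and 5 missed the threshold, and the median log2 fold change was -0.24. The 28.6% called is below the 56.3% of all tested genes. STK3, the MST2 kinase, fell by 0.52 on the log2 scale (standard error 0.11, with edgeR adjusted p = 0.00293), while STK4, the MST1 kinase, had 209 CPM in both groups. The scaffolds SAV1, MOB1A and MOB1B were not called. Without parental 3, 4 genes of this list fell, and with library totals 2 rose and 1 fell. Of all tested genes 27.7% fell without parental 3, and with library totals 38.4% rose and 20.1% fell.

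AMOTL2 encodes a junctional scaffold that binds YAP1 and activates LATS, and AJUBA a LIM protein that restrains LATS. AMOTL2 had 113, 112 and 114 CPM in GlnIND libraries, against 119.98, 137 and 123 CPM in parental libraries. GlnIND libraries were all below the parental ones but by a small margin, and AMOTL2 was not called at -0.17 (standard error 0.069, with edgeR adjusted p = 0.0648). It passed without parental 1 (-0.21, adjusted p = 0.000423), without parental 3 (-0.21, 0.0467) and with RLE factors (-0.18, 0.0478). AJUBA had 193, 186 and 194 CPM in GlnIND libraries, against 155, 198 and 205 CPM in parental libraries. The parental range spanned the GlnIND range, and AJUBA was not called at 0.04 (standard error 0.099, with edgeR adjusted p = 0.743). Its estimate turned to -0.09 without parental 1, also not called (adjusted p = 0.112).

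Paralogues of these scaffolds had larger log2 fold changes than AMOTL2 and AJUBA. AMOT, the founding motin, had 484, 522 and 593 counts in GlnIND libraries, against 4 counts in each parental library. The parental counts lie under a floor of 3 read pairs, or 6 counts, per library, and the ratio over the groups was 105 (exact 95% interval 47.9 to 286, counting error only). AMOT was called higher (edgeR adjusted p = 2.46e-08). AMOTL1, the third motin, had 86.7, 90.1 and 90.3 CPM in GlnIND libraries, against 174, 161 and 162 CPM in parental libraries. AMOTL1 fell by 0.90 on the log2 scale (standard error 0.064, with edgeR adjusted p = 3.26e-06). Per kilobase of exon, the order of the motins in GlnIND cells was AMOTL2 (23.6 ± 0.158 CPM per kb), AMOTL1 (9.89 ± 0.222) and AMOT (2.64 ± 0.0723), and in parental cells AMOTL2 (26.5 ± 1.91), AMOTL1 (18.4 ± 0.823) and AMOT (0.0253 ± 0.00186; SD, n = 3 each). Neighbours in this order were separated by more than their SD in both groups. The AJUBA relatives LIMD1 and WTIP rose, with log2 fold changes of 0.62 and 1.19 (standard error 0.13 and 0.19, with edgeR adjusted p = 0.00242 and 0.000481). LIMD1 stood at 56.9 ± 2.05 CPM in GlnIND and 37.1 ± 7.01 CPM in parental cells, and WTIP at 9.55 ± 1.28 and 4.18 ± 0.949 CPM (SD, n = 3 each).

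Of 21 upstream and scaffold regulators 5 rose, 4 fell and 12 were not called, with a median log2 fold change of -0.03. The 42.9% called is below the 56.3% of all tested genes. Besides AMOT, LIMD1 and WTIP, the genes that rose were FAT4 (0.74) and DCHS1 (1.6), an atypical cadherin and the ligand it pairs with. DCHS1 rested on 78 GlnIND and 20 parental counts (edgeR adjusted p = 0.00872). Parental libraries 1 to 3 had 4, 8 and 8 counts, the first of which lies under the floor of 6 counts. With a filter of 1 CPM in 3 libraries DCHS1 was not tested, and 4 genes of the list rose. FAT1, a related giant cadherin, WWC2, of the KIBRA scaffold family, and the kinase TAOK3 fell by 0.61, 0.47 and 0.60 on the log2 scale beside AMOTL1. NF2, the tumour suppressor merlin at the head of the cascade, was at 16.2 ± 1.79 CPM in GlnIND and 16.6 ± 1.47 CPM in parental cells (SD, n = 3 each, edgeR adjusted p = 0.858). Without parental 1, 7 genes of the list fell, in a setting where 32.9% of all tested genes fell.

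**Figure D2:**
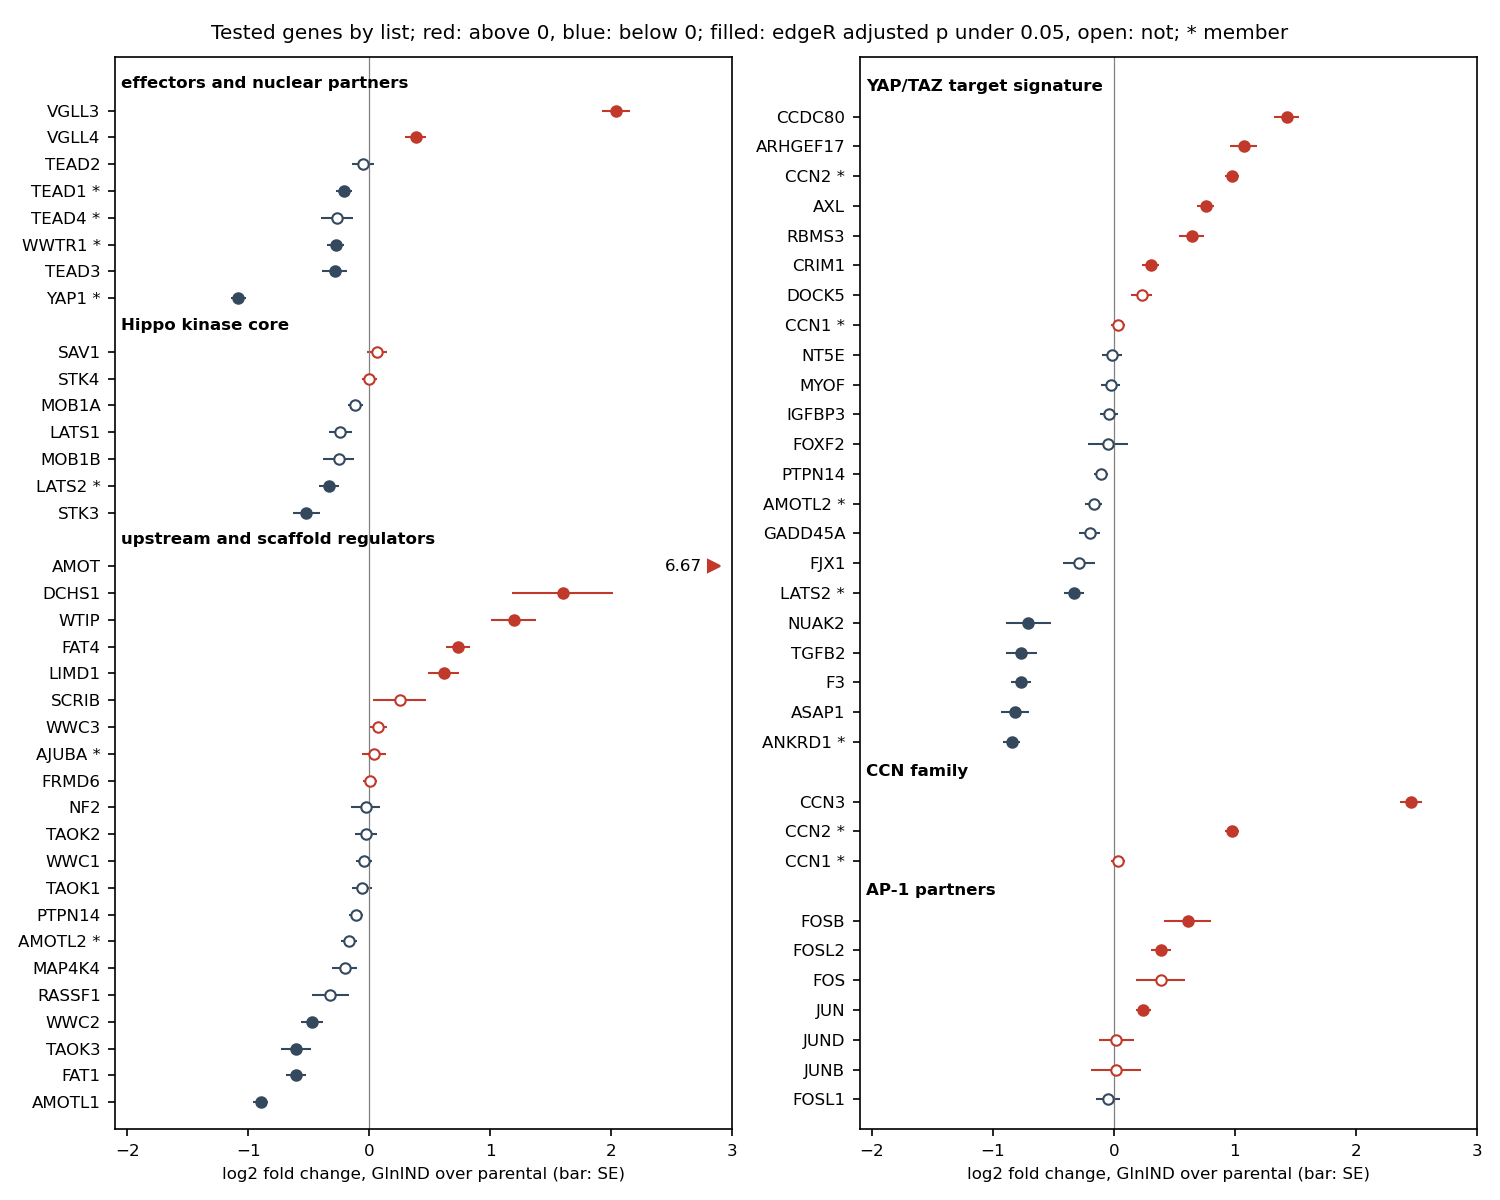
log2 fold change of GlnIND over parental with its SE (horizontal axes) for every tested gene of the 6 lists, ordered within each list, with filled points for edgeR adjusted p under 0.05 and asterisks at members. AMOT, at a fitted 6.67, lies beyond the axis and is drawn as an arrow, and the target signature runs from CCDC80 at 1.43 to ANKRD1 at -0.84.

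CCN2, CCN1 and ANKRD1 are the usual readouts of YAP1 and TAZ activity. CCN2 (formerly CTGF) and CCN1 (formerly CYR61) are secreted matricellular proteins, and ANKRD1 is an ankyrin repeat protein of the nucleus and sarcomere. TEAD factors recognise the letters GGAATG, or CATTCC on the other strand. RefSeq promoter windows, from 250 bases before to 50 after a transcription start in build GRCh38.p14, were found for 7 of the 10 members, some with more than 1 window. Of their 10 windows 6 held the motif, 1 for each of 6 genes, and of all 35116 promoter windows 14.03% held it. A match describes the letters in that window and is not evidence of binding, and since the counts were made on hg19 no positions were joined between the builds. The windows of CCN2 (chr6:131951323-131951622, minus strand) and ANKRD1 (chr10:90921038-90921337, minus strand) are shown because these targets moved in opposite directions, and those of YAP1 (chr11:102110197-102110496, plus strand) and LATS2 (chr13:21061537-21061836, minus strand) because both genes fell. Each is printed 5′ to 3′ on the strand of its gene, and capitals mark the motif.
CCN2: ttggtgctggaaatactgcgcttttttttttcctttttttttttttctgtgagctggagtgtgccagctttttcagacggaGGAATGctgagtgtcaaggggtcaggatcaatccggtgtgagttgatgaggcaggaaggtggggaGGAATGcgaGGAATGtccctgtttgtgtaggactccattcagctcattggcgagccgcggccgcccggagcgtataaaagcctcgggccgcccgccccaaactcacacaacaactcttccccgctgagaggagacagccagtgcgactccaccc
ANKRD1: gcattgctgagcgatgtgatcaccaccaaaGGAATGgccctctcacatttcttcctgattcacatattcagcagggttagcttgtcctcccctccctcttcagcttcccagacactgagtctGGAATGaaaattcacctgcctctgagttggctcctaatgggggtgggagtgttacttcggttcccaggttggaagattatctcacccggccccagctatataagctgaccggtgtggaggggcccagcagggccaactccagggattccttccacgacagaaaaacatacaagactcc
YAP1: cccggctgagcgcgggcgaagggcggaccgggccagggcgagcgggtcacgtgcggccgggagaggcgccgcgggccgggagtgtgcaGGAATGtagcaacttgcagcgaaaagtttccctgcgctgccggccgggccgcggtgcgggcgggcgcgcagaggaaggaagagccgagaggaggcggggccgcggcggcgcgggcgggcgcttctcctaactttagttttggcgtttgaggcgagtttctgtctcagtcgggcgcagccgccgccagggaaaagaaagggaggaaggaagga
LATS2: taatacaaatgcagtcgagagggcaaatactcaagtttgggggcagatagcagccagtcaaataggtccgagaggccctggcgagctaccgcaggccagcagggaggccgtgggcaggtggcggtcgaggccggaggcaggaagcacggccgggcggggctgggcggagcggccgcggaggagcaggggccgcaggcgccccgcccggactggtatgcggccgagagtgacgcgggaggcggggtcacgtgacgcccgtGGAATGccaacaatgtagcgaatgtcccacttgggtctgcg

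The CCN2 window held 3 copies, which start 169, 104 and 95 bases before the transcription start, and only 0.128% of all windows held 3 or more. The ANKRD1 window held 2 copies, which start 220 and 128 bases before the start, against 1.37% of windows with 2 or more. Both genes that moved in opposite directions thus carried the motif more than once. YAP1 held 1 copy, 162 bases before the start, and LATS2 held 1 copy just after the start. Neither window of WWTR1 held a copy. A loose form of the AP-1 motif, TGANTCA, takes any base in the middle and reads alike on both strands. It was present in the ANKRD1 window without overlapping its GGAATG copies and absent from that of CCN2, against 7.71% of all windows. The ANKRD1 match had T in the middle, where AP-1 sites usually have C or G, so it is not a usual AP-1 site.

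CCN2 had 1169.7, 1135 and 1128 CPM in GlnIND libraries, against 606, 574 and 564 CPM in parental libraries. Every GlnIND library lay above every parental one by a wide margin. The means were 1144 ± 22.3 CPM in GlnIND and 581 ± 21.6 CPM in parental cells (SD, n = 3 each), with a log2 difference of 0.98 (standard error 0.059, with edgeR adjusted p = 1.44e-06). ANKRD1 had 424, 429 and 388 CPM in GlnIND libraries, against 782, 743 and 703 CPM in parental libraries. It was lower in every GlnIND library and fell by 0.84 on the log2 scale (standard error 0.069, with edgeR adjusted p = 7.96e-06). CCN1 had 811, 816 and 774 CPM in GlnIND libraries, against 799, 767 and 779 CPM in parental libraries. The ranges overlapped, and CCN1 was not called at 0.03 (standard error 0.058, with edgeR adjusted p = 0.635). With library totals CCN1 was called at 0.19 (adjusted p = 0.0124), close to the shift of 0.18 that the median gene then showed.

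Ratios within a library set these targets against each other without scaling. The count ratio of CCN2 to ANKRD1 was 2.76, 2.64 and 2.91 in GlnIND libraries, against 0.774, 0.773 and 0.803 in parental libraries. The ratio was thus 3.535-fold higher in GlnIND cells, a log2 difference of 1.82. The count ratio of CCN2 to CCN1 was 1.44, 1.39 and 1.46 in GlnIND libraries, against 0.758, 0.748 and 0.724 in parental libraries. TEAD1 to YAP1 was 2.44, 2.46 and 2.40 in GlnIND libraries, against 1.41, 1.25 and 1.32 in parental libraries. In all of these, every GlnIND library lay above every parental one, and the exact two-sided permutation p was 0.1, the smallest possible. The 4 ratios were chosen after the values were seen, and each includes YAP1 or CCN2, which were already called. Their separation therefore adds no separate support to those calls.

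**Figure D3:**
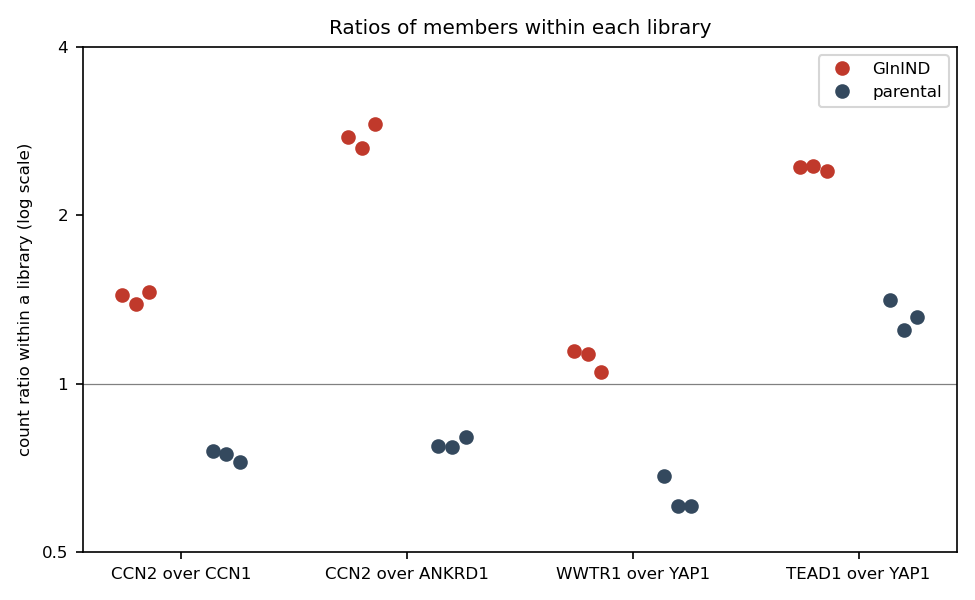
Ratio of the counts of 2 members within each library (vertical axis, log scale) for 3 GlnIND libraries (red, left of each pair) and 3 parental libraries (blue, right). CCN2 over ANKRD1 stands at 2.64 to 2.91 in GlnIND and at 0.773 to 0.803 in parental libraries. The groups are apart for all 4 ratios, which were chosen after the values were seen.

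Of the 22 genes of a published YAP/TAZ target signature, which includes 5 of the members, 6 rose, 6 fell and 10 were not called, with a median log2 fold change of -0.04. The 54.5% called is close to the 56.3% of all tested genes, and so is its division between higher and lower. Of the 17 that are no members, 5 rose, 4 fell and 8 were not called. CCDC80, a secreted matrix protein, had 149, 147 and 145 CPM in GlnIND libraries, against 62.8, 54.0 and 46.6 CPM in parental libraries, a log2 fold change of 1.43 (standard error 0.1, with edgeR adjusted p = 3.15e-06). AXL, a receptor tyrosine kinase, stood at 2075 ± 10.97 CPM in GlnIND and 1227 ± 103 CPM in parental cells (SD, n = 3 each), and its log2 fold change was 0.76. RBMS3, an RNA-binding protein, and CRIM1, a membrane regulator of BMP signals, rose by 0.64 and 0.31. The genes that fell were ASAP1, an Arf GTPase-activating protein (-0.82), F3, the clotting initiator tissue factor (-0.77), the ligand TGFB2 (-0.77) and the kinase NUAK2 (-0.71). Without parental 1, 7 genes of the signature rose and 10 fell, in a setting where 65.2% of all tested genes were called.

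In the CCN family, CCN3 (formerly NOV) had a larger log2 fold change than CCN1 or CCN2. It had 64.2, 67.4 and 66.3 CPM in GlnIND libraries, against 12.1, 13.0 and 10.9 CPM in parental libraries. CCN3 was higher in every GlnIND library, with a log2 fold change of 2.46 (standard error 0.092, with edgeR adjusted p = 7.72e-08). Per kilobase of exon the order was CCN2, CCN1, CCN3 in GlnIND cells (489 ± 9.52, 349.6 ± 10.1 and 26.2 ± 0.655 CPM per kb) and CCN1, CCN2, CCN3 in parental cells (341 ± 6.92, 249 ± 9.23 and 4.76 ± 0.412 CPM per kb; SD, n = 3 each). CCN4, CCN5 and CCN6 had at most 8 counts in any library and were not tested. AP-1 factors share many enhancers with TEAD. Among 7 AP-1 genes 3 rose, 0 fell and 4 missed the threshold, and their median was 0.24. The 42.9% called is below the 56.3% of all tested genes, and 28.4% of all tested genes rose. FOSB, FOSL2 and JUN rose by 0.61, 0.39 and 0.24 on the log2 scale, and FOSL1, the most abundant of them, was at 370 ± 5.68 CPM in GlnIND and 382 ± 62.6 CPM in parental cells (SD, n = 3 each). Without parental 1, 1 AP-1 gene, JUNB, fell, in a setting where 32.9% of all tested genes fell. FOSB lost its call without GlnIND 2 (adjusted p = 0.076), GlnIND 3 (0.0984) or parental 2 (0.0639) and with DESeq2 (0.0526).

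The members lie on 8 chromosomes, and some lie where many neighbouring genes moved the same way. For each gene the up to 20 nearest tested genes on either side were taken from RefSeq gene order. Of all tested genes 27.9% were called lower and 28.4% higher, and counts of neighbours are read against these shares. Around YAP1 on chromosome 11, 31 of 40 neighbours fell and 2 rose, with a median log2 fold change of -0.92 beside its own -1.08. The neighbours of AMOTL1, also on chromosome 11, had a median of -1.03 beside its own -0.90, and they may overlap those of YAP1. Around LATS2 on chromosome 13, where 31 tested neighbours were found, the median was -0.53 beside its own -0.33. Around TEAD4 on chromosome 12 it was -0.47 beside -0.27, and around TEAD1 it was -0.21 beside -0.21. Each of these 5 genes lay at most 0.20 log2 units away from the median of its neighbours. AMOTL2 (-0.17 beside 0.03) and AJUBA (0.04 beside 0.24) lay as close, without a shared shift. The share of all tested genes that lie this close was not counted.

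Among the members that are targets, CCN2 and ANKRD1 stood apart from their surroundings and CCN1 did not. The neighbours of CCN2 on chromosome 6 had a median of -0.05 beside its own 0.98, with 9 higher and 9 lower. Those of ANKRD1 on chromosome 10 had a median of -0.16 beside -0.84. For CCN1 both values were 0.03. Signature genes that are no members also stood apart, with CCDC80 at 1.43 beside 0.07 and ASAP1 at -0.82 beside 0.40. F3 was at -0.77 beside -0.04, TGFB2 at -0.77 beside -0.10 and NUAK2 at -0.71 beside 0.04. How many of all tested genes lie this far from their neighbours was not counted. The medians around CCN3, AMOT and VGLL3 were 0.03, -0.13 and 0.10 beside changes of 2.46, 6.67 (a fitted value that rests on 4 counts per parental library) and 2.04. Other genes lay close to theirs, with VGLL4 at 0.38 beside 0.37 and STK3 at -0.52 beside -0.41. On chromosome 4, WWC2 was at -0.47 beside -0.44 and FAT1 at -0.61 beside -0.52, and their neighbours may overlap. For FAT1 23 tested neighbours were found. FAT4, also on chromosome 4, moved against its neighbours, at 0.74 beside -0.37. TAOK3 was at -0.60 beside -0.07 and DCHS1 at 1.6 beside -0.09. Some genes that rose lay among neighbours with medians above 0. LIMD1 was at 0.62 beside 0.25, WTIP at 1.19 beside 0.43 and AXL at 0.76 beside 0.42. RBMS3 was at 0.64 beside 0.42 and CRIM1 at 0.31 beside 0.21. CCN2, AMOT, FAT4 and DCHS1 also rose, but among neighbours with medians below 0. WWTR1 fell by 0.28 among neighbours with a median of 0.05. The part of the neighbourhood in any of these changes was not tested.

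**Figure D4:**
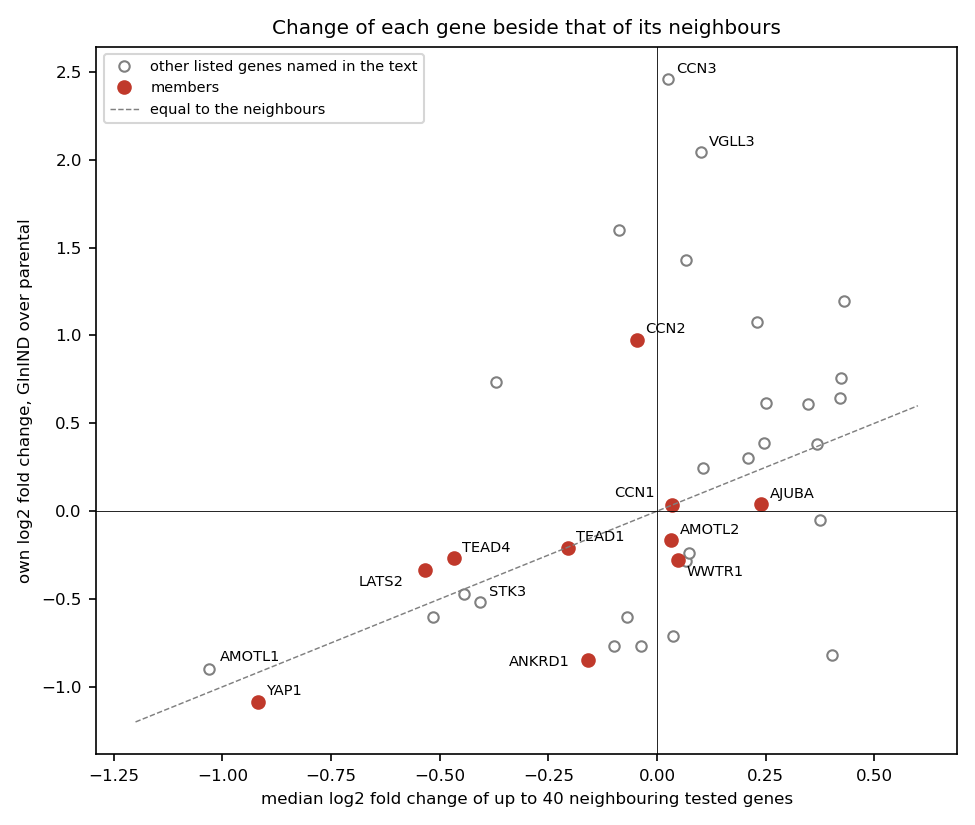
log2 fold change of each gene (vertical axis, GlnIND over parental) beside the median log2 fold change of up to 40 neighbouring tested genes (horizontal axis), with members as filled red points and other named genes of the lists as open grey points; AMOT lies above the axis. YAP1 (-1.08 beside -0.92) lies near the dashed line of equal change, and CCN2 (0.98 beside -0.05) and ANKRD1 (-0.84 beside -0.16) lie away from it.

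The genes most like YAP1 in profile, by the root mean square difference of centred log2 CPM over the 6 libraries among 9436 genes with a mean of at least 10 CPM, were CEP41, UBE4A and CHST11, at differences of 0.038, 0.042 and 0.0435. UBE4A also lies on chromosome 11, with a log2 fold change of -1.03 beside a neighbour median of -0.97. CEP41 on chromosome 7 had -1.06 beside -0.51, and CHST11 on chromosome 12 had -1.13 beside -0.28. Those most like CCN2 were NPAS2, DHX40 and IFT52, at 0.039, 0.041 and 0.041. With 2 groups of 3 such likeness mainly reports a similar difference between the groups.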

How the data were processed

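Raw counts for each gene symbol were deposited by the authors, both as a table for every library and as a joint matrix. The submitters' processing notes name FastQC, STAR, featureCounts, DESeq and the build hg19. Versions, annotation and strand setting are not given in the sources used here, so overlapping or antisense genes may share counts. The matrix holds the same values with the numbers of replicates 1 and 3 exchanged within each group, and numbers here follow the tables. Low counts were mostly even (60.6% to 65.0% under 20 counts), so floors were set at 3 read pairs, or 6 counts, and cover counting error only.

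Counts were tested with edgeR 4.0.16 in R 4.3.3 (glmQLFit, glmQLFTest, two-sided), TMM factors, filterByExpr (minimum count 10, total 15) and the group alone as design; 13949 genes were tested and 14316 were not. CPM values are TMM-normalised, and fold changes are GlnIND over parental with SE from the F statistic. Counting intervals used halved counts and exact Clopper-Pearson limits. The smallest permutation p with these group sizes is 0.1. Lengths are unions of exons in GENCODE release 29. RefSeq placed genes in order, and no coordinates were converted.

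Members and lists were chosen with earlier results of these data known. Named were the 10 members, their family members, from each of 6 lists the 3 called genes that changed most among those averaging 1 CPM or more, and the 3 closest profiles to YAP1 and CCN2. A gene that this rule names in the target signature is not reported here. Other genes were named after their values were seen, and the 4 ratios were chosen then too. Alternatives were RLE, upper-quartile and total scaling, no filter, a filter of 1 CPM in 3 libraries, omission of each library, a block for the replicate number, limma-voom (limma 3.58.1), DESeq2 1.42.0, an adjusted p under 0.01 and the matrix.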

Additional observations from a re-analysis of the deposited data

How the results depend on the processing

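The calls of YAP1, ANKRD1 and CCN2 held under all 16 alternatives, with log2 fold changes of -1.13 to -0.93, -0.91 to -0.69 and 0.93 to 1.13. WWTR1 and LATS2 held under 15 of the 16, with library totals (-0.12 and -0.18) as the exception, and TEAD1 under 11. The matrix is counted among the 16, but it holds the same values in each group and could not give another result. Scaling moved the median of the whole table, which stood at 0.03 under TMM, 0.12 under upper-quartile scaling and 0.18 under library totals. TMM gave 3965 genes higher and 3888 lower, upper-quartile scaling 4749 and 3204, and library totals 5356 and 2810. With library totals, 2 members were higher (CCN1 and CCN2), 2 were lower (YAP1 and ANKRD1), and 3 of the effectors and nuclear partners were called. Leaving out each library in turn, 2 to 4 genes of the Hippo kinase core were called, beside 46% to 65.2% of all tested genes. The cause of these shifts was not tested. With the replicate number as a block 7303 genes were called, 1 member higher and 5 lower, and no call of a named gene changed. Deviations of same-numbered libraries from their group means had correlations of -0.0647, 0.0165 and -0.0761, and not every library was most like the one with its own number, so the numbers were not taken to pair the libraries. At 3 libraries a group, changes of the size of AMOTL2 or LATS1 lay near the threshold and moved across it with single libraries.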
